A study of Prunus persica with 24 samples.

Results

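Peach (Prunus persica) flesh stored at 35 °C held 106 genes whose transcript level stayed at least 2-fold above that of flesh stored at 25 °C from day 2 to day 7, out of 26873 gene identifiers. The genes were chosen by a rule on the deposited values. FPKM (fragments mapped to a transcript, scaled to its length and to all mapped fragments) of rows with one identifier were summed and put on the scale of log2(FPKM + 1). The difference, 35 minus 25 °C, had to reach 1 on each of days 2, 3, 5, 6 and 7. That held for 126 genes. Genes that fell by at least 1 at 25 °C and rose by at least 1 at 35 °C from day 1 to day 2 were left out, which removed 20. The differences on these 5 days therefore describe the group and are not evidence for it. The number depends on the pseudocount: with 0.1 in place of 1 the rule gave 244 genes, of which 97 were among the 106.

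The fruit were kept at 5 °C for 2 days after harvest and then divided at random between the 2 temperatures. The labels list 24 libraries of flesh depleted of ribosomal RNA, 2 for each temperature on days 1, 2, 3, 5, 6 and 7. They name no cultivar, agent or genotype. The deposited tables hold 1 value per gene for each of the 12 combinations, standing for both libraries, so that no value has an error between replicates. In whole flesh, more transcript per cell and more cells of a type that holds it cannot be told apart. The columns' FPKM added up to between 651850 and 882184, and the read depth behind them is unknown.

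Peach is a climacteric fruit: after harvest its flesh ripens with a burst of ethylene, softens through the breakdown of cell wall pectin and later senesces. Heat alters this course, and plant cells moved to high temperature generally raise transcripts of heat shock proteins, the chaperones that keep other proteins folded. The tables pair the identifiers with no gene names, and a search of RefSeq's peach gene table for them found 0. No function is therefore given for any member, no list of gene families could be applied, and the labelled tissue was not checked against marker genes.

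The members had similar median levels in both groups of fruit on day 1, and their medians lay apart from the next sampling on. On day 1 the median over members was 9.57 FPKM in fruit at 25 °C and 9.94 FPKM in fruit at 35 °C. On days 2, 3, 5, 6 and 7 it was 29.5, 31.05, 18.05, 26.1 and 25.0 FPKM in fruit at 35 °C. In fruit at 25 °C it was 6.38, 7.39, 6.02, 6.60 and 5.71 FPKM on those days. Over all 15435 genes with at least 1 FPKM in at least 2 columns, the median moved little, between 8.29 and 9.41 FPKM at 25 °C and between 9.08 and 9.90 FPKM at 35 °C. All 106 members passed this filter, because the rule itself demands at least 1 FPKM at 35 °C on 5 days.

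**Figure D1:**
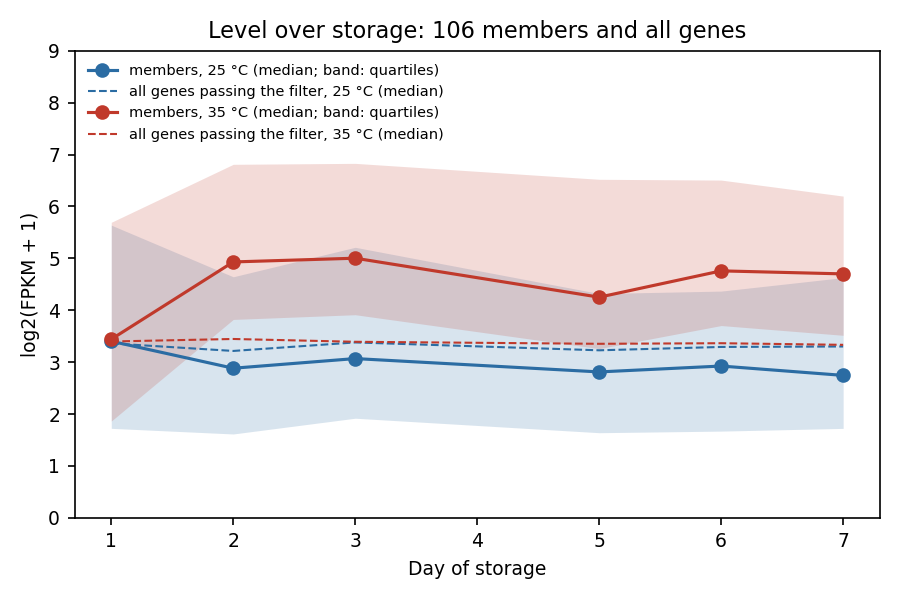
Median log2(FPKM + 1) of the 106 members (solid lines, points; bands are quartiles over members) and of all genes passing the filter (dashed lines) against day of storage, at 25 °C (blue) and 35 °C (red). The member medians nearly meet on day 1, at 9.57 and 9.94 FPKM, and lie apart on every later day.

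Day 1 was the one sampling that the difference rule did not use, but the exclusion did use it. The 20 genes removed had a median day 1 difference of -0.15, so the day 1 counts are not free of the choice. On day 1 the members' median difference was 0.05 on the log2 scale, with quartiles of -0.18 and 0.31. The median for all genes that passed the filter was 0.04. A positive difference was found in 57 of 106 members, and 84 of 106 lay within 0.5 of 0, where 84.8% of all genes did. At least 2-fold higher at 35 °C on day 1 were 2 members, beside 0.862% of all genes, and at least 2-fold lower was 1 member, beside 3.07%. With 1 value per group these day 1 counts have no test.

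The members with the highest day 1 differences were Prupe.2G181700, Prupe.8G080100 and Prupe.1G108400. Prupe.2G181700 was listed on day 1 with 77.2 FPKM for 25 °C and 208 FPKM for 35 °C, a difference of 1.42. On days 2, 3, 5, 6 and 7 it stood at 20.6, 53.9, 14.2, 45.7 and 39.8 FPKM at 25 °C and at 105, 154, 156, 153 and 119.8 FPKM at 35 °C. Its day 1 level at 35 °C was thus above each later one, and the lasting gap went with lower levels at both temperatures. Prupe.8G080100 had 19.1 FPKM on day 1 in fruit at 25 °C and 44.4 FPKM in fruit at 35 °C, and Prupe.1G108400 at 2.47 and 5.73 FPKM, differences of 1.17 and 0.96. At the other end, Prupe.6G309400 was the 1 member at least 2-fold lower at 35 °C on day 1, with 7.75 FPKM for 25 °C and 2.81 FPKM for 35 °C, a difference of -1.20. A day later it read 7.64 and 72.0 FPKM. Prupe.2G175000, at -0.81, and Prupe.1G435400, at -0.68, followed on day 1.

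On the 5 days used by the rule, a difference of at least 1 was found in 13.0%, 6.48%, 6.16%, 6.25% and 6.31% of all genes on days 2, 3, 5, 6 and 7. On all 5 days together it was found in 0.816%, the 126 genes before the exclusion. Nothing is read from these shares, which the rule fixes. On day 2 the median of all genes was itself 0.19 higher at 35 °C in the deposited FPKM and 0.04 higher after rescaling, and on the other days it lay between -0.01 and 0.07 as deposited. Relative to that shift, the members' median difference of 2.11 on day 2 is 0.19 smaller. Their medians on days 3, 5, 6 and 7 were 1.80, 1.45, 1.69 and 1.68. Averaged over the 5 days, members ranged from 1.23 to 3.44 with a median of 1.74, a 3.34-fold difference in FPKM + 1. The mean was at least 2 in 33 members and at least 3 in 8.

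**Figure D2:**
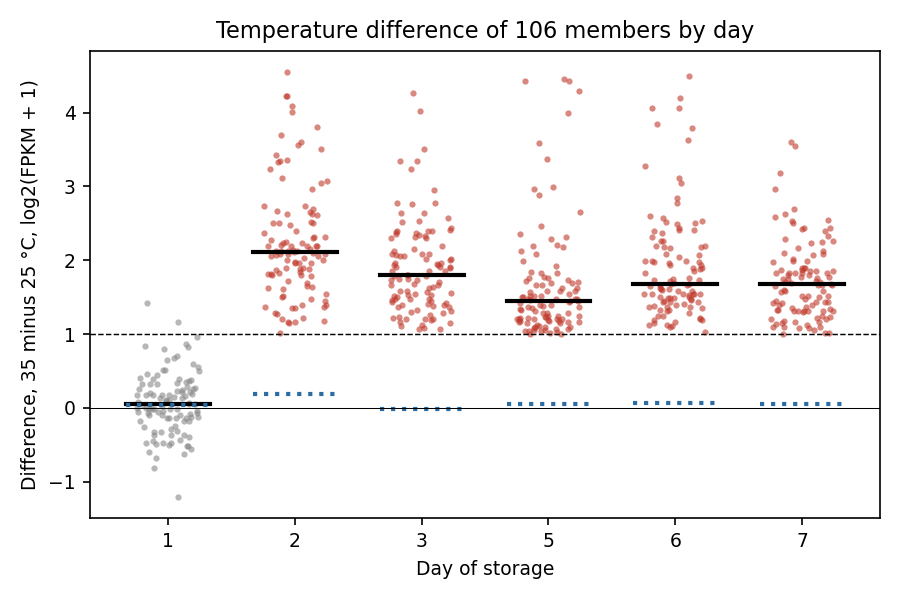
Difference 35 minus 25 °C in log2(FPKM + 1) for each of the 106 members (points) on each day, with the member median (black bar) and the median of all genes passing the filter (dotted blue bar). Day 1 (grey) was used only by the exclusion, not by the difference rule, and centres on 0.05. The red points lie above the dashed line at 1 because the rule requires it.

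The difference was largest on day 2 in 50 members, and on days 3, 5, 6 and 7 in 20, 11, 8 and 17. The narrowest day was day 5 in 41 members and day 7 in 27. Differences of at least 2 were held by 64, 40, 20, 34 and 25 members on days 2, 3, 5, 6 and 7. The day 7 difference was below the day 2 difference in 80 of 106 members. The rule used these values, and differences of at least 1 were also most frequent on day 2 over all genes, at the 13.0% above, so nothing on timing is read from these counts.

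Every value at 35 °C from day 2 to day 7 lay above every value at 25 °C from day 2 to day 7 in 97 members, beside 9.48% of all genes, a count that follows largely from the rule. In 78 members the 5 later values at 35 °C also lay above both day 1 values, so that they exceeded all 7 other columns. The share of all genes was not worked out for this count. The rule favours such an order, so nothing is read from it. The threshold falls within a dense range of values, with 23 members between 1 and 1.1 in their smallest difference and 45 genes outside between 0.9 and 1. Just inside were Prupe.3G100300, with a smallest difference of 1.0002, and Prupe.5G144900, with 1.0024, and both were under 1 after rescaling. Just outside were Prupe.6G078600, with 0.9988, and Prupe.4G079600, with 0.9966.

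Members differed in whether the gap lay above or below their own day 1 level. From day 1 to the mean of days 2 to 7, 58 members were at least 2-fold higher at 35 °C and changed by less than 2-fold at 25 °C. Another 17 were at least 2-fold lower at 25 °C and changed by less than 2-fold at 35 °C, and 6 did both. Neither temperature showed a 2-fold change in 18 members. Levels were at least 2-fold higher at both temperatures in 5 members and at least 2-fold lower at both in 2. Over all genes, the shares of these classes in the same order were 6.42%, 3.05%, 0.272%, 76.6%, 1.65% and 5.99%. In all, 69 members were at least 2-fold higher at 35 °C, beside 8.34% of all genes, and 25 were at least 2-fold lower at 25 °C, beside 9.32%. At 35 °C 2 members were lower, beside 10.7% of all genes, and at 25 °C 5 were higher, beside 3.05%. The median change was 1.44 at 35 °C and -0.25 at 25 °C, against 0.02 and 0.00 for all genes. The rule ties these counts to the temperature difference, since it demands a high level at 35 °C relative to 25 °C on the later days, and they are a description. The exclusion also thins them: of the 20 genes it removed, 11 were lower at 25 °C without a 2-fold change at 35 °C, 5 were higher at 35 °C and lower at 25 °C, and 4 were higher at 35 °C without a 2-fold change at 25 °C.

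**Figure D3:**
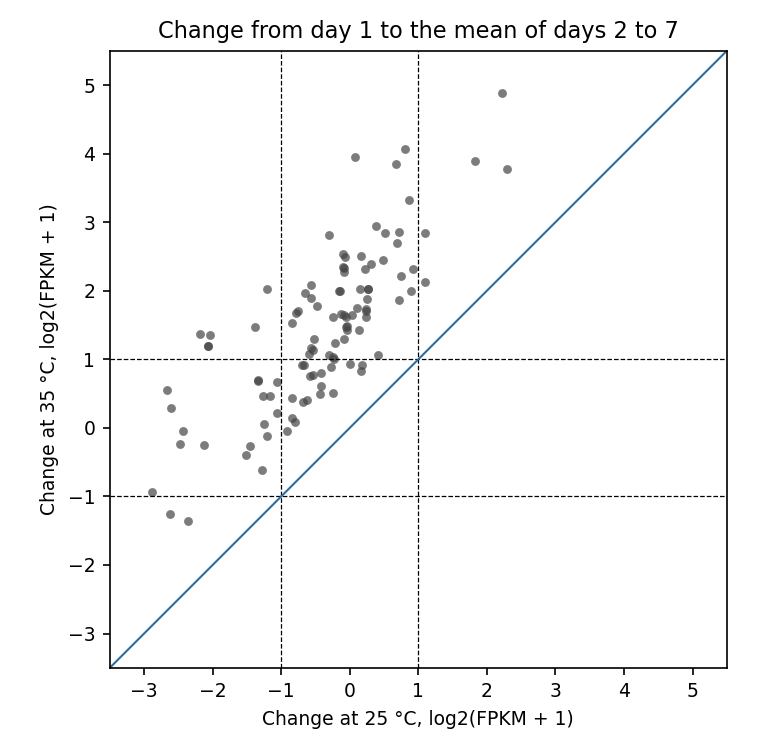
Change from day 1 to the mean of days 2 to 7 in log2(FPKM + 1), at 25 °C (x axis) and 35 °C (y axis), with 1 point per member, dashed lines at 2-fold changes and a blue line where both changes are equal. Of the 106 points, 58 lie in the top middle field (higher at 35 °C, under 2-fold at 25 °C) and 17 in the middle left field (lower at 25 °C, under 2-fold at 35 °C).

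The 5 members with the highest mean log2(FPKM + 1) over days 2 to 7 at 35 °C were Prupe.1G426700, Prupe.7G194800, Prupe.6G343800, Prupe.2G231900 and Prupe.5G208500. By mean FPKM, Prupe.1G498400 also ranked among the highest, at 677 FPKM. Prupe.1G426700 was the most abundant by either measure. Its values at 25 °C were 1761 FPKM on day 1 and then 1741, 5554, 2977, 3595 and 3239 FPKM. Those at 35 °C were 2247 FPKM on day 1 and then 28020, 38130, 23647, 16446 and 13563 FPKM. Its lowest later value at 35 °C was above its highest value at 25 °C, and its differences were 4.01, 2.78, 2.99, 2.19 and 2.07 on the 5 later days.

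Among all 26873 identifiers, Prupe.1G426700 ranked 1 at 35 °C on days 2 and 3, 2 on days 5 and 6 and 3 on day 7, whereas at 25 °C it ranked between 11 and 52. It held 5.55% of the summed FPKM on day 3 at 35 °C and 0.669% on day 3 at 25 °C. The summed FPKM of all members made up 5.41%, 7.20%, 4.81%, 3.83% and 2.96% of the total on days 2, 3, 5, 6 and 7 at 35 °C. Without Prupe.1G426700 these shares were 1.77%, 1.65%, 1.18%, 1.34% and 1.13%. At 25 °C the members held between 0.472% and 1.01% of the total on the same days, and between 0.275% and 0.349% without Prupe.1G426700. Prupe.1G426700 thus supplied most of the members' summed FPKM at 35 °C from day 2. Shares and levels here are per length of transcript, as FPKM is.

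Prupe.7G194800 and Prupe.6G343800 were nearly level at 25 °C. Prupe.7G194800 read 369, 334, 326, 349, 391 and 349.9 FPKM on days 1, 2, 3, 5, 6 and 7 at 25 °C. Its values at 35 °C were 415 FPKM on day 1 and then 806, 1324, 977, 1012 and 1062 FPKM. Each later value at 35 °C was above all 6 values at 25 °C. Prupe.6G343800 lay between 177 and 211 FPKM at 25 °C and read 207 FPKM on day 1 at 35 °C, then 859, 845, 442, 545 and 608 FPKM. Prupe.2G231900 was less even: at 25 °C it read 109, 108, 132, 289, 90.5 and 157 FPKM, and at 35 °C 77.0, 377, 689.6, 580.5, 541 and 949 FPKM. Its high value at 25 °C on day 5 left a difference of 1.0037 on that day, close to the threshold, and after rescaling its smallest difference was 0.98. Prupe.5G208500 had 257.4 FPKM on day 1 in fruit at 25 °C and 271 FPKM in fruit at 35 °C. Its later values were 178, 201, 129, 193 and 170.1 FPKM at 25 °C and 497, 522, 313, 456 and 541 FPKM at 35 °C, with differences between 1.24 and 1.66.

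**Figure D4:**
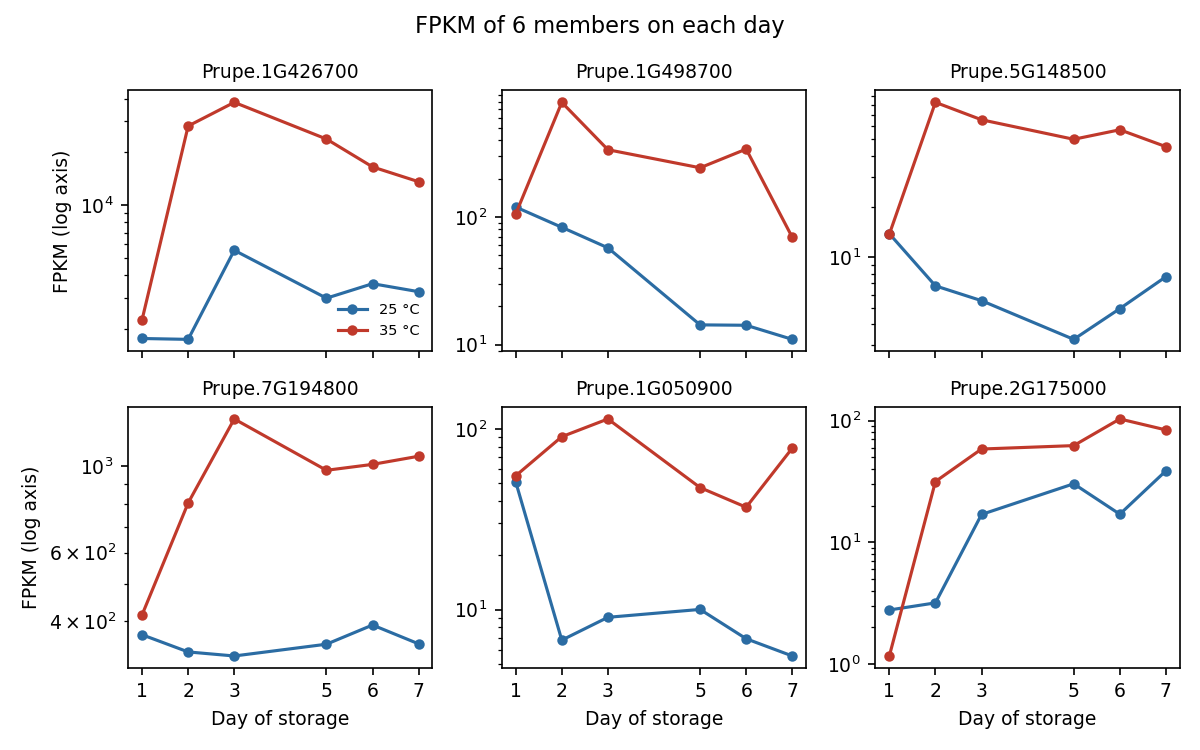
FPKM of 6 members against day of storage on logarithmic axes that differ between panels, at 25 °C (blue) and 35 °C (red); each point is the authors' single value for its temperature and day. Prupe.1G426700 reaches 38130 FPKM at 35 °C, Prupe.1G050900 is lower than on day 1 at 25 °C, at 5.54 FPKM on day 7 after 51.0 FPKM, and Prupe.2G175000 is higher than on day 1 at both temperatures from day 2.

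By the smallest of the 5 daily differences, the widest gaps were those of Prupe.1G498700, Prupe.5G148500, Prupe.1G050900, Prupe.8G066900 and Prupe.1G426700, the 5 members in which it was at least 2. Prupe.5G148500 had 13.8 FPKM on day 1 in fruit at 25 °C and 13.7 FPKM in fruit at 35 °C. At 25 °C it then read 6.77, 5.53, 3.26, 4.96 and 7.67 FPKM, and at 35 °C 83.0, 65.4, 50.1, 57.0 and 45.3 FPKM. All later values at 35 °C were above the day 1 values and all later values at 25 °C were below them. Prupe.8G066900 stayed between 5.81 and 7.76 FPKM at 25 °C over the 6 days. Fruit at 35 °C had 8.67 FPKM on day 1 and then 46.3, 41.9, 29.8, 36.7 and 35.3 FPKM. Its differences lay in a narrow range, from 2.65 on day 2 to 2.12 on day 7.

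Prupe.1G050900 is 1 of the 17 members that were lower at 25 °C without a 2-fold change at 35 °C. On day 1 it had 51.0 FPKM in fruit at 25 °C and 55.1 FPKM in fruit at 35 °C. On day 2 it read 6.78 FPKM at 25 °C, and it stayed between 5.54 and 10.03 FPKM there. At 35 °C it read 90.7, 114, 47.4, 36.9 and 78.4 FPKM, on both sides of its day 1 level. Its change from day 1 to the mean of days 2 to 7 was -2.61 at 25 °C and 0.29 at 35 °C.

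The most negative changes at 35 °C among members were those of Prupe.1G223200, at -1.36, and Prupe.3G179600, at -1.26, the 2 that were lower at both temperatures. Prupe.1G223200 went from 35.8 FPKM to 14.2, 7.46, 4.27, 4.66 and 3.86 FPKM at 25 °C. At 35 °C it went from 46.5 FPKM to 29.8, 18.5, 12.8, 16.2 and 14.4 FPKM, so that levels were below day 1 on every later day at both temperatures. Prupe.3G179600 had 28.9 FPKM on day 1 at 25 °C and between 2.41 and 5.41 FPKM later, and 33.7 FPKM on day 1 at 35 °C and between 8.99 and 17.3 FPKM later. In both the change at 25 °C was more negative, at -2.36 and -2.62. After rescaling, the smallest difference of Prupe.1G223200 was 0.83, under the rule's limit.

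The most positive changes at 35 °C were those of Prupe.2G175000, at 4.89, and Prupe.6G309400, at 4.07. Prupe.2G175000 was also higher over time at 25 °C, where it read 2.77, 3.17, 16.9, 30.2, 16.98 and 38.6 FPKM, a change of 2.22. Fruit at 35 °C had 1.16, 31.5, 58.3, 62.2, 103 and 83.7 FPKM. The day 2 value at 35 °C, 31.5 FPKM, was near the day 5 value at 25 °C, 30.2 FPKM. After rescaling, its smallest difference was 0.99, also under the limit. For Prupe.6G309400 the values at 35 °C after day 1 were 72.0, 102, 114, 40.0 and 29.1 FPKM, and those at 25 °C were 7.64, 28.8, 13.7, 17.9 and 10.6 FPKM. The ranges came close without overlap, since the highest at 25 °C was 28.8 FPKM on day 3 and the lowest at 35 °C was 29.1 FPKM on day 7.

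**Figure D5:**
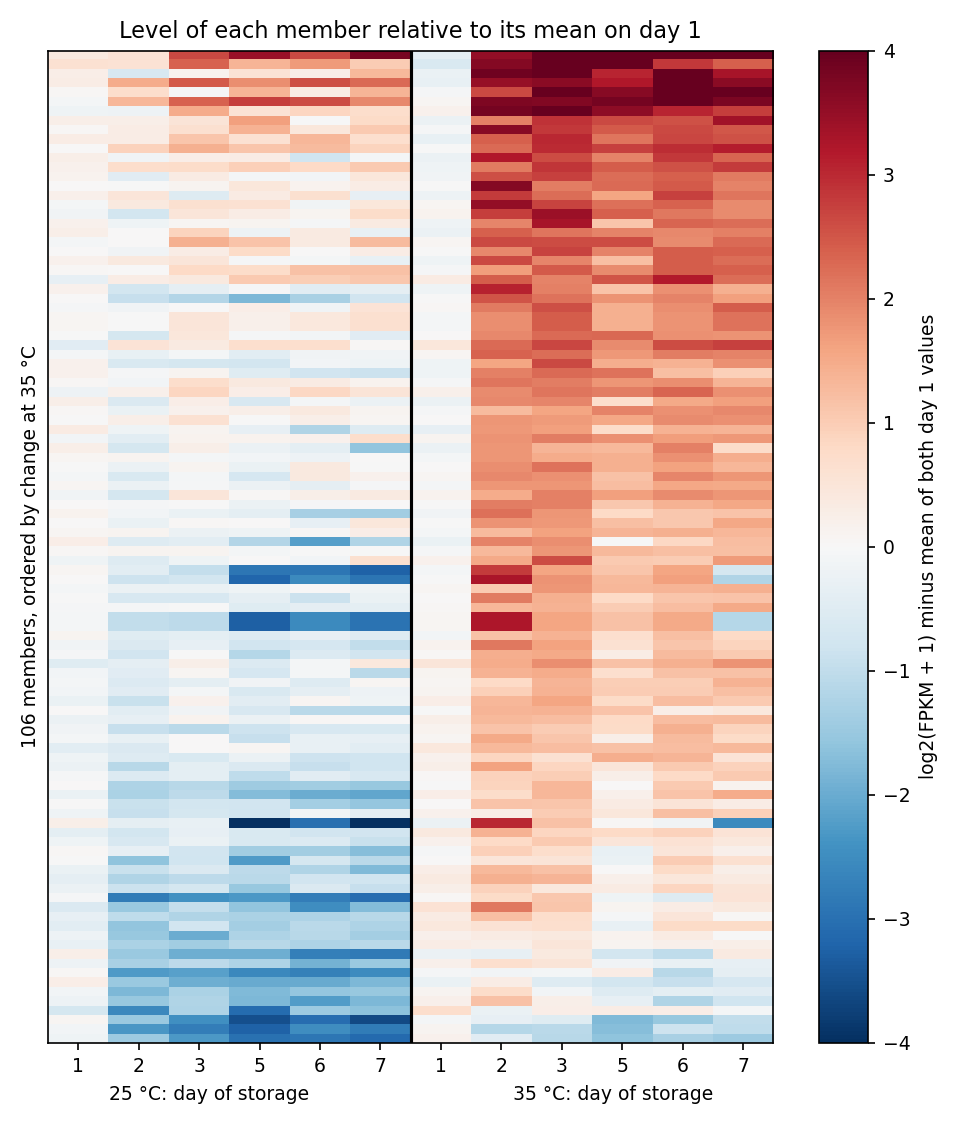
Level of each of the 106 members (rows, ordered by change at 35 °C) on each day at 25 °C (left) and 35 °C (right), as log2(FPKM + 1) minus the mean of its values on day 1 at both temperatures, with red for higher and blue for lower. Most rows are red at 35 °C from day 2 on, and the rows at the bottom are separated mainly by deeper blue at 25 °C. Prupe.1G223200 and Prupe.3G179600, at the very bottom, are blue at both temperatures from day 2 on.

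Drift of the levels from day 2 to day 7 was fitted with limma as a slope on day within each temperature, fitted to all 15420 genes that passed the filter after rescaling. The spread is that of the days around the line, not of fruit or libraries. The slopes come from the day 2 to 7 values that the rule also used to choose the members, so they are not independent of it. The members' counts are therefore given as a description, with the shares over all genes beside them, and nothing is read from the comparison. At 35 °C, 0 of 106 members were called at a limma adjusted p under 0.05, beside 0.00649% of all genes, which is 1 gene. An unadjusted p under 0.05 was reached by 27 members, 25 of them falling, beside 11.5% of all genes in either direction and 8.18% falling. The smallest limma adjusted p, 0.0866, was shared by Prupe.3G100300 and Prupe.1G121000. Prupe.1G121000, named for this value, had a slope of -0.92, the steepest of the members, with 409, 114, 51.7, 45.0 and 7.76 FPKM on days 2 to 7 at 35 °C. It also fell at 25 °C, with a slope of -0.86 and 39.1, 40.8, 1.69, 5.37 and 1.71 FPKM on those days. Its difference of slopes was -0.06. The 27 members reaching an unadjusted p under 0.05 became 10 without day 2, beside 6.25% of all genes, and lay between 21 and 28 without 1 of the other days.

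At 25 °C, 0 of 106 members were called for a slope by limma, beside 0.739% of all genes. Of the members, 19 had an unadjusted p under 0.05, 15 of them falling, beside 19.2% of all genes in either direction and 12.3% falling. The smallest limma adjusted p was 0.0560, again that of Prupe.1G121000. The difference of the slopes is a trend in the 5 daily differences on which the rule rests, and it is given on the same terms. No member was called (0 of 106, and 0% of all genes), 9 members had an unadjusted p under 0.05, beside 14.0% of all genes, and 8 of these had the lower slope at 35 °C, beside 6.21% of all genes, and the smallest limma adjusted p was 0.217. The absence of calls does not show that levels or gaps were constant.

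Members also varied in how even they were. At 25 °C, 44 members stayed within a 2-fold range of FPKM + 1 over the 6 days, beside 61.5% of all genes. The narrowest was Prupe.4G277200, which read 15.2, 15.6, 15.8, 13.6, 14.5 and 14.5 FPKM. Fruit at 35 °C had 13.9 FPKM on day 1 and 37.5, 52.4, 37.4, 34.9 and 35.1 FPKM later. From day 2 to day 7 at 35 °C, 53 members stayed within a 2-fold range, beside 76.9% of all genes. The narrowest there was Prupe.1G485100, at 157, 149.5, 143, 149 and 155 FPKM after 84.5 FPKM on day 1, while at 25 °C it lay between 41.7 and 66.0 FPKM over the 6 days. These 2 genes were chosen after their values were seen. Both counts use the day 2 to 7 values that the rule also used, and the pseudocount narrows ranges at low levels. Nothing is therefore read from their comparison with all genes.

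The highest value at 35 °C was that of day 2 in 41 members, of day 3 in 35 and of day 1 in 4, and in the other 26 it came later. Over all genes the shares were 22.6% for day 2, 13.7% for day 3 and 29.6% for day 1. At 25 °C the highest value was that of day 1 in 48 members, where 22.6% of all genes had theirs, and that of day 2 in 1 member, beside 14.2% of all genes. The rule favours low values at 25 °C and high values at 35 °C on days 2 to 7, so these counts follow in part from it.

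Abundance at 35 °C, as a mean over days 2 to 7, ranged from 2.11 to 23961 FPKM with a median of 24.9. It was under 10 FPKM in 22 members, from 10 to 100 FPKM in 58 and 100 FPKM or more in 26. At 25 °C the median was 6.92 FPKM, and 10 members averaged under 1 FPKM. Among these, Prupe.5G144900 read 0.256, 0, 0.174, 0.198, 0.0927 and 0.443 FPKM at 25 °C. For 35 °C it was listed at 0 on day 1 and then at 3.36, 10.1, 1.40, 4.65 and 4.24 FPKM. Of the 1272 member values, 6 in 4 genes are listed at 0, all outside days 2 to 7 at 35 °C, and an exact 0 can be a failed estimate.

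The identifiers carry a number from 1 to 8 before the letter G and a running number after it, and no positions are given in the tables. Members were spread over all 8 numbers, with 22 under number 1 (20.8%, beside 23.1% of all genes), 14 under number 7 (13.2%, beside 10.4%) and 8 each under numbers 4 and 8. Another member lay within 2 places in the order of identifiers for 14 members, in 6 runs. No rate for all genes was worked out, so no clustering is read from this count. Members of the same run may share reads if they are copies, and the sources used here do not say how such reads were counted.

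The longest run held Prupe.1G498300, Prupe.1G498400, Prupe.1G498600 and Prupe.1G498700, of which Prupe.1G498700 had the largest smallest difference of all members, at 2.53. Prupe.1G498700 was listed at 119.8 FPKM on day 1 at 25 °C and then at 83.1, 57.4, 14.3, 14.2 and 11.0 FPKM. Fruit at 35 °C had 105 FPKM on day 1 and then 791, 337, 243, 341 and 69.3 FPKM. The level at 25 °C was lower on each later day than on day 1, while that at 35 °C was above its day 1 value until day 6 and below it on day 7. Prupe.1G498300 and Prupe.1G498600 are listed with the same value in each of the 12 columns, with 50.7 FPKM on day 2 in fruit at 25 °C and 967 FPKM in fruit at 35 °C. They may be a single measurement, but both stand in the counts over 106 members. Their mean difference over the 5 days, 3.44, was the highest among members. Prupe.1G498400 reached 1713 FPKM on day 2 at 35 °C against 99.7 FPKM at 25 °C, and 75.5 against 22.6 FPKM on day 7. Its differences were 4.09, 2.52, 4.46, 4.20 and 1.70 on the 5 later days, and those of Prupe.1G498700 lay between 2.53 and 4.49. In both the difference was smaller on day 3 than on days 2 and 5. Levels of such neighbours are uncertain.

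The next identifiers, Prupe.1G498800 and Prupe.1G498900, also met the difference rule but were left out by the exclusion. Prupe.1G498800 read 54.7, 23.4, 19.2, 3.03, 2.64 and 3.54 FPKM at 25 °C and 25.0, 478, 148, 75.4, 68.5 and 11.3 FPKM at 35 °C. Prupe.1G498500, within the run, was listed at 0 in all 12 columns. From day 1 to day 2 Prupe.1G498800 changed by -1.19 at 25 °C, just past the limit of -1 that removed it. Prupe.1G498300 changed by -0.89 and Prupe.1G498400 by -0.82. The same change was -0.52 in Prupe.1G498700, which was kept, and -1.47 in Prupe.1G498900. The exclusion therefore separated Prupe.1G498800 from Prupe.1G498300 and Prupe.1G498400, with similar courses, by small differences from day 1 to day 2 at 25 °C.

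Across the 12 columns, the genes outside the group most like Prupe.1G498700 were Prupe.1G498800, with a Pearson correlation of 0.975, Prupe.2G029900, with 0.964, and Prupe.6G349000, with 0.949. They were sought among 10130 genes averaging 5 FPKM or more. The 12 columns share temperatures and days, and the values describe likeness of course, not of size. Prupe.2G029900 lay between 11.1 and 16.2 FPKM at 25 °C and between 15.9 and 21.8 FPKM at 35 °C, with a smallest difference of 0.40. Prupe.6G349000 had a smallest difference of 0.27.

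The other runs were smaller. Prupe.7G061100 and Prupe.7G061200 are also listed with the same values, with 5.43 FPKM for 25 °C and 4.66 FPKM for 35 °C on day 1 and with 4.91 and 21.0 FPKM on day 2. With both such pairs counted once, the group holds 104 measurements. On day 2 Prupe.2G275200 read 1.90 FPKM for 25 °C and 8.14 FPKM for 35 °C, and its neighbour Prupe.2G275300 read 2.03 and 10.9 FPKM. Prupe.8G080100 and Prupe.8G080300 were both higher at 35 °C on day 1, with differences of 1.17 and 0.80. In contrast, Prupe.5G148300 and Prupe.5G148500 differed in size, at 14.3 and 83.0 FPKM at 35 °C on day 2. Prupe.3G179400 and Prupe.3G179600 differed in course, with changes at 35 °C of 1.77 and -1.26 from day 1 to the mean of days 2 to 7. Genes in this paragraph were named for their places in the order of identifiers.

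The 20 genes left out by the exclusion had a median difference of -0.15 on day 1 and 3.08 on day 2, and medians of 2.23, 1.61, 1.99 and 2.13 on days 3, 5, 6 and 7. Their median change from day 1 to the mean of days 2 to 7 was -1.49 at 25 °C and 0.88 at 35 °C, against -0.25 and 1.44 in the members. The group lower at 35 °C by at least 1 on all 5 days also held 106 genes, with no exclusion applied to it. Its counterpart is therefore the 126 genes before the exclusion, not the 106 members. Its median difference was -0.20 on day 1 and between -2.10 and -1.91 later. Of its genes, 46 were at least 2-fold lower at 35 °C with less than a 2-fold change at 25 °C, beside 4.59% of all genes. Another 30 were at least 2-fold higher at 25 °C with less than a 2-fold change at 35 °C, beside 1.31%. Both groups are fixed by their rules, and their differences were not tested.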

How the data were processed

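The authors deposited FPKM values in 2 tables, one per temperature, with 6 columns each, per the file headers. Each column stands for the 2 libraries of a group. Not given in the sources used here are how they were combined, how columns were scaled, and the genome build and annotation. Ribosomal RNA had been depleted and strand was kept in the libraries, per the labels' protocols. The submitters' processing notes list Cufflinks 2.1.1, TopHat2 2.0.10, Bowtie2 2.1.0, SAMtools 0.1.18 and FastQC 0.10.1, without roles. Low FPKM values showed no steps of whole reads, so depth is unknown and no counting interval can be given.

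Rows of one identifier were summed (29300 rows, 26873 identifiers, 2034 with more than 1 row). Levels and differences use FPKM as deposited, with a pseudocount of 1, which understates changes of low genes. For slopes, all columns were rescaled by median-of-ratios factors over 12194 identifiers above 1 FPKM in every column. Slopes were fitted with limma 3.58.1 (eBayes with a mean trend) in R 4.3.3, over days 2, 3, 5, 6 and 7, with a level and a slope for each temperature, and Benjamini-Hochberg adjustment over all 15420 genes. The temperatures lie in separate tables, and no source used here says whether these were normalized together.

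The members, tests and lists were chosen with earlier results of these data known. Genes were named by fixed rules: the 5 with the highest mean log2(FPKM + 1) over days 2 to 7 at 35 °C, the 5 with the largest smallest difference, the 3 highest and 3 lowest on day 1, 2 just inside and 2 just outside the threshold, the 2 most positive and 2 most negative changes at 35 °C, and the 3 genes most like the first of the second rule. No slope was called, so none was named by its call. Other genes were named as the text states.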

Additional observations from a re-analysis of the deposited data

How the results depend on the processing

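No paired analysis was possible because each column stands for both libraries of its group, and so the fit with a replicate block was not run and no replicate could be left out. The number of members was 244 with a pseudocount of 0.1, of which 97 were among the 106. It was 99 after rescaling (98 shared), 102 with 1 row per identifier (99 shared), 104 with identical values counted once, 87 among genes averaging 5 FPKM or more and 106 with the filter. With a pseudocount of 0.1, 4 members reached a 2-fold higher level at 35 °C on day 1 and 4 a 2-fold lower one, and 8 were higher over time at both temperatures. The mean of days 3 to 7, chosen after the data were examined, gave 8 members higher at both temperatures and 2 that were higher at 35 °C and lower at 25 °C. The other counts by course stayed within 1.5 times. Slopes at 25 °C called 1 member with a pseudocount of 0.1 (Prupe.8G007800), beside 108 of all 15420 genes. With day 1 included they called 3 members (Prupe.1G223200, Prupe.3G211600 and Prupe.4G078000), beside 286 of all 15420 genes. All of these called members were falling, and nothing is read from the counts. In each other alternative, and for both other slope comparisons in every alternative, 0 members were called. Of 38 smallest differences of named members under rescaling or a pseudocount of 0.1, 33 stayed at or above 1, 5 were under 1, all after rescaling, and 0 were below 0. The causes were not tested, and what depth limits is unknown.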
